A study of Mus musculus with 24 samples.

Results

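The genes described here carry peptides to the cell surface for T cells, and they were followed in mouse liver by genotype and dietary methionine. There were 10 of them among the 15160 genes listed in the count table, chosen by symbol. The 6 class I members were H2-K1 and H2-D1, the heavy chains, B2m, their shared light chain, Tap1 and Tap2, the subunits of the peptide transporter, and Tapbp, the tapasin that tethers the heavy chain to that transporter. The 4 class II members were H2-Aa and H2-Ab1, the chains of the I-A dimer, H2-Eb1, the beta chain of I-E, whose alpha chain is known not to be made in C57BL/6 mice, and Cd74, the invariant chain that escorts class II molecules. All 10 passed the filter on low counts, which kept 13336 genes. On a methionine-restricted diet (MR), Tap1 and B2m fell both in wild-type mice (WT) and in mice without hepatic NRF2 (NRF2 KO), and H2-K1 fell in the NRF2 KO mice. The class II genes were lower on MR in the fitted values of both genotypes without passing the test.

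Class I molecules are made by nearly all nucleated cells. Peptides cut by the proteasome enter the endoplasmic reticulum through the Tap1 and Tap2 transporter, are loaded onto a heavy chain with the help of tapasin and chaperones, and are shown to CD8+ T cells. Class II molecules are made mainly by professional antigen presenting cells, in the liver Kupffer cells, dendritic cells and B cells, and show peptides from the endosome to CD4+ T cells after the invariant chain is removed. Interferons raise both sets of genes, class I through the regulator Nlrc5 and class II through Ciita.

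Livers came from 24 male mice on the C57BL/6 background, 6 in each of 4 groups, and RNA was sequenced from the 3′ end of transcripts. All mice carried floxed Nfe2l2 alleles, the gene of the transcription factor NRF2. WT mice were Nfe2l2 fl/fl, and NRF2 KO mice were Nfe2l2 fl/(Alb), in which Cre recombinase under the albumin promoter removes exon 5. Albumin is a hepatocyte product, so the model deletes the gene in hepatocytes, whereas immune cells of the liver keep it. Each genotype was fed a control diet (Con, 0.86% methionine) or a methionine-restricted diet (MR, 0.17% methionine) for 8 weeks from 8 weeks of age, and the labels give an age of 5 months. The mice WT_CON_7604 and WT_MR_7612 were left out of the fits, as the study left them out after a principal component analysis, and their values are given where they bear on a result. The 22 kept libraries held 6197291 to 22068338 counts, with group medians of 14860992 (WT Con, n = 5), 11538109 (WT MR, n = 5), 15514868 (KO Con, n = 6) and 16173154.5 (KO MR, n = 6).

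The knocked-out gene was read first. Nfe2l2 stood at 94.0 to 107 CPM (counts scaled to a library total of 1000000) in the 5 WT MR mice and at 202 to 249 CPM in the 6 KO MR mice. In the KO Con mice it ran from 228 to 339 CPM. In WT Con it was 106, 117, 118 and 125 CPM in 4 mice and 324 CPM in the library labelled WT_CON_7607, which lay inside the range of the KO Con mice. Fitted over all 22 mice, the log2 difference of KO from WT was 0.83 ± 0.21 (SE, edgeR adjusted p = 0.045) on Con and 1.18 ± 0.22 (edgeR adjusted p = 0.0035) on MR. Without WT_CON_7607 it was 1.27 on Con (edgeR adjusted p = 6.4e-09). Counts per gene do not resolve the excised exon, so these values are no check of the deletion. Counts of members and list genes lower on MR in WT are therefore given also without the library labelled WT_CON_7607 where they differ.

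The promoters of 4 members are shown because the class II genes varied together from mouse to mouse and because Tap1 and B2m are the class I genes that fell in both genotypes. Class II promoters are known for an X box, bound by the RFX complex, followed by a Y box, bound by NF-Y, and interferon-responsive promoters for an interferon-stimulated response element. RefSeq windows from 250 bases before to 50 bases after the annotated start were matched for 7 of the 10 members (GRCm38.p6). Capitals mark GCAAC, letters found in the X box core, CCAAT, the letters of the Y box, and GAAANNGAA, letters of the interferon-stimulated response element, each searched on both strands. These letters were chosen with the sequences in view. Each window is written 5′ to 3′ on the strand of the gene, chr17:34287774-34288073 on the minus strand for H2-Aa, chr17:34305617-34305916 on the plus strand for H2-Eb1, chr17:34187306-34187605 on the plus strand for Tap1 and chr2:122147437-122147736 on the plus strand for B2m.
H2-Aa: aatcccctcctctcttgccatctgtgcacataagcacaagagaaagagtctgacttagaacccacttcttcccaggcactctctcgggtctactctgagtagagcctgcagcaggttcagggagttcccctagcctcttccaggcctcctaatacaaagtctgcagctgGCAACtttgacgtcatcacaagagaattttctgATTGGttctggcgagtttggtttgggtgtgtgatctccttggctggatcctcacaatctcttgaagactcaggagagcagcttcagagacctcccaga
H2-Eb1: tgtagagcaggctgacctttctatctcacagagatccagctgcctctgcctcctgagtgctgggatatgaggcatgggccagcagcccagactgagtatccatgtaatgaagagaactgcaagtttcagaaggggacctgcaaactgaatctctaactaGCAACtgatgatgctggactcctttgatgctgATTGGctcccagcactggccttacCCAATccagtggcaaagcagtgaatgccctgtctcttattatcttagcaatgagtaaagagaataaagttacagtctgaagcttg
Tap1: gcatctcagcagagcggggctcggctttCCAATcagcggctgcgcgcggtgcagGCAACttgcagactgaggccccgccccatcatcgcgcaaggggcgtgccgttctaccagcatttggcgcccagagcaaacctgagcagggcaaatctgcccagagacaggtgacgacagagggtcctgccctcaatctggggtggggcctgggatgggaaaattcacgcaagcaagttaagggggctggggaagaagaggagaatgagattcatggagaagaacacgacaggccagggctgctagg
B2m: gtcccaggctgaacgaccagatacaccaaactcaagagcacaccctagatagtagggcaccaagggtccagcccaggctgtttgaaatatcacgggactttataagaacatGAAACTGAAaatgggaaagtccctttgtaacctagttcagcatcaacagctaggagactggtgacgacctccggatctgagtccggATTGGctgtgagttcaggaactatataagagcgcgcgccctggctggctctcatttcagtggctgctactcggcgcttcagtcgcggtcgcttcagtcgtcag

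H2-Aa held GCAAC beginning 81 bases before the start and a reverse-strand CCAAT beginning 48 bases before it. H2-Eb1 held the same pair in the same order and orientation, at 91 and 59 bases before the start. In Tap1 the CCAAT came first, at 222 bases, and GCAAC followed at 196 bases. B2m alone among the 7 members with a window held GAAANNGAA, beginning 139 bases before its start, beside a reverse-strand CCAAT at 53 bases. Other forms of the interferon-stimulated response element were not searched, so the count does not show that the remaining windows lack one. For example, H2-K1 and H2-D1 both held agtttcacttct, with GAA shortly before GAAA on the reverse strand, which the search did not count. Over all 32851 windows of this length, CCAAT was found in 37.4%, GCAAC in 35.2% and GAAANNGAA in 8.6%, and among the 7 members in 7, 4 and 1. The matches are a description of the letters and say nothing on binding in these livers.

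The first question was how MR changed the class I genes in mice with and without hepatic NRF2. In WT mice 2 of the 6 class I members passed the test, Tap1 and B2m, both lower. In NRF2 KO mice 3 of 6 passed, Tap1, B2m and H2-K1, all lower. Over all 13336 genes tested, 13.8% passed in WT and 12.6% in KO in either direction, and 6.91% and 6.34% passed as lower. The median log2 fold change of the 6 class I members was -0.19 in WT and -0.20 in KO, against -0.006 and -0.004 over all genes. Without the library labelled WT_CON_7607 the same 2 were called in WT and the class I median was -0.23. That median ran from -0.29 without WT_CON_7608 to -0.11 without WT_CON_7603, and was -0.27 with all 24 mice and -0.08 when scaled by library size alone. The values of each mouse are in the plot of CPM by group.

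**Figure D1:**
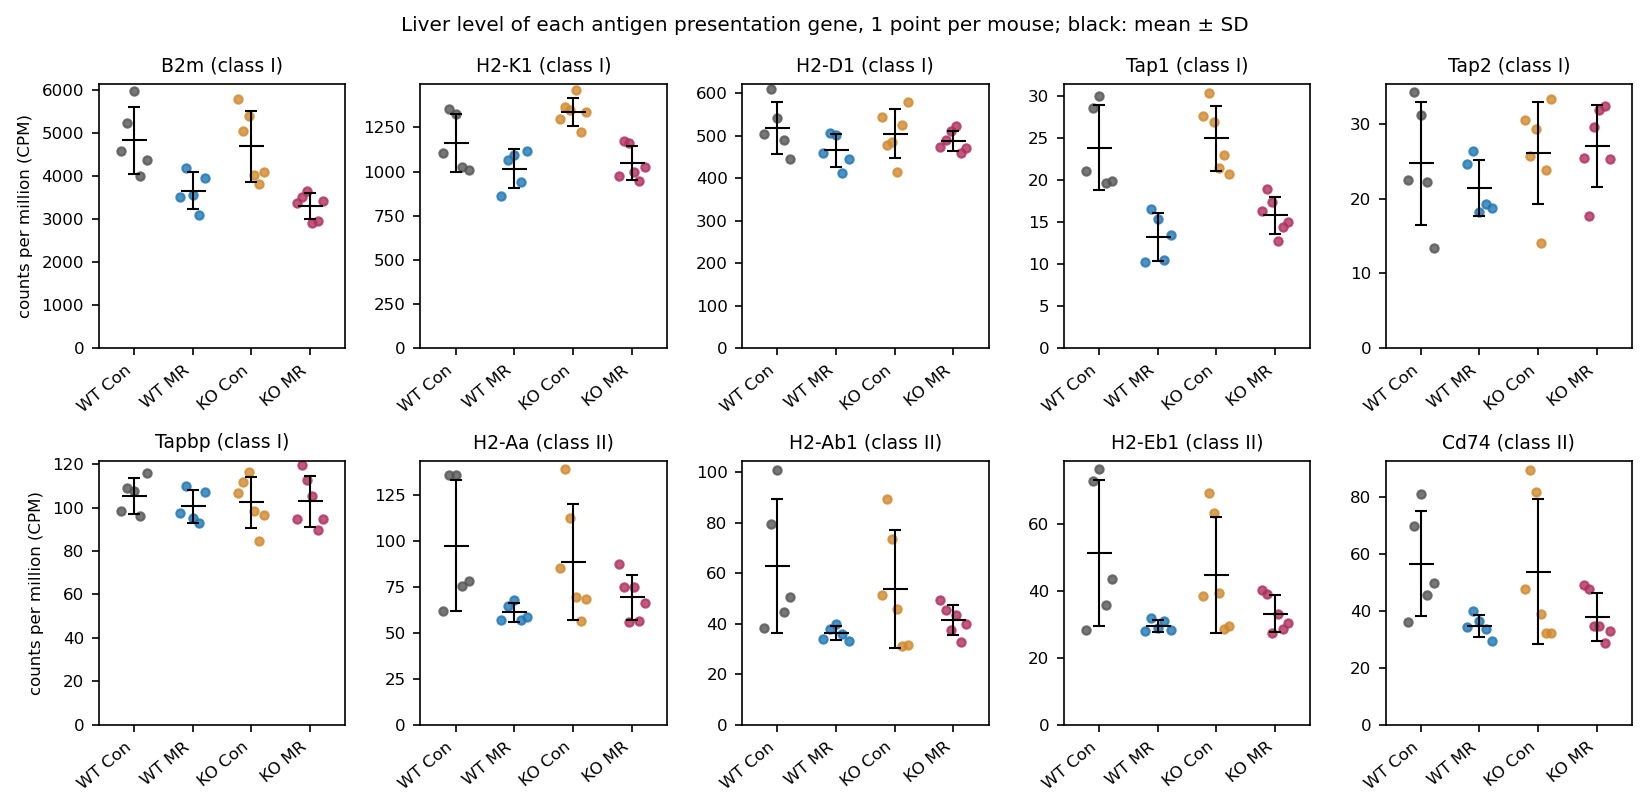
Each panel plots one gene in CPM (linear axis from 0) for the 22 kept mice by group, with the group mean and SD in black. Every MR point of Tap1 lies below every Con point within a genotype, whereas the Con points of the 4 class II genes spread widely and reach down into the MR range.

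Tap1, which fell in both genotypes, separated the mice by diet. In WT Con mice it was 21.1, 28.7, 30.1, 19.65 and 19.9 CPM, and in WT MR mice 10.2, 16.5, 15.4, 10.55 and 13.5 CPM. KO Con mice ran from 20.75 to 30.4 CPM with a median of 25.0, and KO MR mice from 12.8 to 19.0 CPM with a median of 15.7. The diet groups did not overlap in either genotype. In the whole table every MR mouse was below every Con mouse for 4.00% of genes in WT and 2.83% in KO. The log2 fold change was -0.84 ± 0.15 in WT (SE, edgeR adjusted p = 8.0e-04), a fitted change of -44.1%, and -0.67 ± 0.14 in KO (edgeR adjusted p = 0.0024), a fitted change of -37.0%. Tap1 kept its call in all 22 fits that left out 1 mouse, including the one without the library labelled WT_CON_7607 (-0.90, edgeR adjusted p = 7.8e-04).

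Tap2, which forms the other part of the same transporter, gave different values. Its mean was 24.7 ± 8.22 CPM in WT Con and 21.4 ± 3.76 CPM in WT MR (SD, n = 5 each), and 26.1 ± 6.82 CPM in KO Con and 27.0 ± 5.53 CPM in KO MR (SD, n = 6 each). Its log2 fold change on MR was -0.19 ± 0.23 in WT (edgeR adjusted p = 0.65) and 0.05 ± 0.21 in KO (edgeR adjusted p = 0.91), and the diet groups overlapped in both genotypes. The log2 ratio of Tap1 to Tap2 within a mouse was lower on MR by 0.71 in WT and 0.73 in KO (differences -0.71 and -0.73). This ratio is one of 6 that were chosen after the values were seen and tested in each genotype, 12 tests in all. By the two-sided exact permutation test its p was 0.016 in WT and 0.032 in KO, and 0.069 and 0.095 after Benjamini-Hochberg adjustment over the 12. The difference between Tap1 and Tap2 therefore did not pass after adjustment. The ratios among B2m, H2-K1 and H2-D1 did not pass either, with adjusted p of 0.069 to 0.73 by the same exact permutation test.

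B2m, the light chain of every class I molecule, was 4572, 5221, 5966, 3997 and 4355 CPM in WT Con mice and 3511, 4189, 3546, 3097 and 3941 CPM in WT MR mice. The groups overlapped in WT, where the highest MR mouse lay above the library labelled WT_CON_7607. KO Con mice ran from 3820 to 5791 CPM (median 4556) and KO MR mice from 2900 to 3639 CPM (median 3390), with no overlap. The log2 fold change was -0.40 ± 0.13 in WT (edgeR adjusted p = 0.035) and -0.51 ± 0.11 in KO (edgeR adjusted p = 0.0049). The WT call was lost without WT_CON_7603 (-0.37, edgeR adjusted p = 0.078), WT_CON_7605 (-0.31, edgeR adjusted p = 0.10), WT_MR_7609 (-0.39, edgeR adjusted p = 0.070), WT_MR_7613 (-0.39, edgeR adjusted p = 0.072) or WT_MR_7615 (-0.34, edgeR adjusted p = 0.098). Without the library labelled WT_CON_7607 it held (-0.46, edgeR adjusted p = 0.023). The WT call was also lost with only the groups compared in the fit. The KO call held in all 22 fits that left out 1 mouse.

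The heavy chains H2-K1 and H2-D1 had smaller fitted changes than Tap1. In KO mice H2-K1 ran from 1224 to 1463 CPM on Con (median 1341) and from 946 to 1172 CPM on MR (median 1013), with no overlap and a log2 fold change of -0.35 ± 0.09 (SE, edgeR adjusted p = 0.011). With WT_CON_7604 and WT_MR_7612 returned to the fit its adjusted p was 0.067 by edgeR. In WT mice H2-K1 was 1104, 1352, 1325, 1026 and 1009 CPM on Con and 863, 1068, 1093, 940 and 1118 CPM on MR. The WT groups overlapped, and the log2 fold change of -0.19 ± 0.10 did not pass (edgeR adjusted p = 0.20). H2-D1 was 518 ± 61.7 CPM in WT Con, 465 ± 39.5 CPM in WT MR, 504 ± 58.0 CPM in KO Con and 487 ± 24.5 CPM in KO MR (SD, n = 5 or 6). Its log2 fold changes of -0.16 ± 0.09 in WT (edgeR adjusted p = 0.29) and -0.05 ± 0.08 in KO (edgeR adjusted p = 0.76) did not pass. H2-K1, H2-D1 and the H2-Q genes share long near-identical stretches, so the split of reads among them is uncertain. Tapbp stayed close to 100 CPM in every group, from 100.7 ± 7.65 CPM in WT MR to 105.5 ± 8.21 CPM in WT Con (SD, n = 5 each), with log2 fold changes of -0.07 ± 0.09 and 0.003 ± 0.08 that did not pass.

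**Figure D2:**
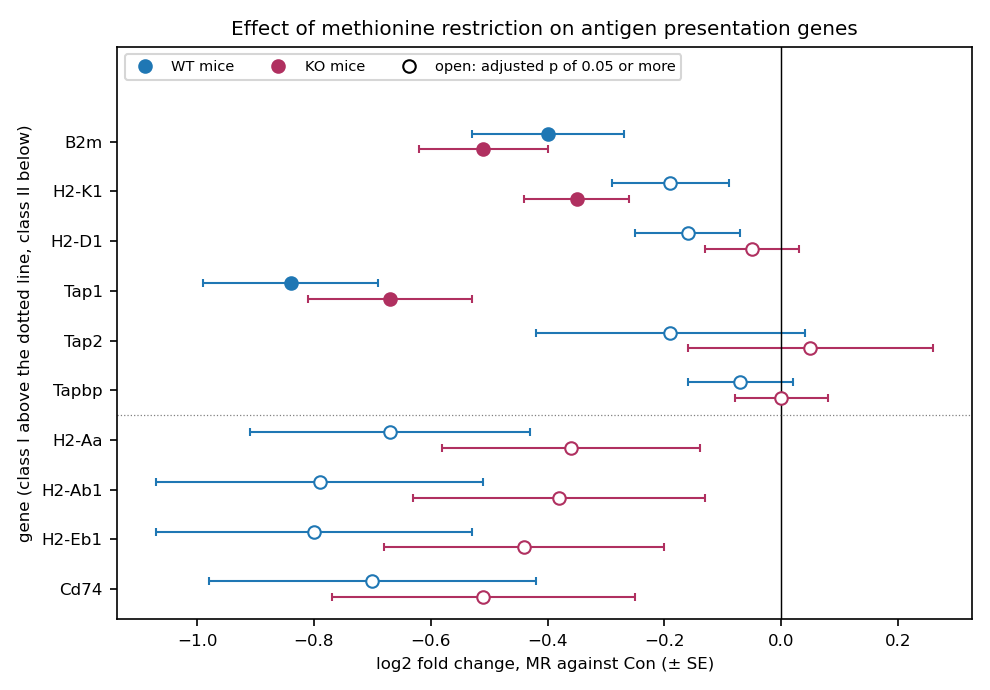
Log2 fold changes of MR against Con with their SE (x axis) are drawn for the 10 members in WT and NRF2 KO mice, filled where the edgeR adjusted p was under 0.05. Filled points are Tap1 and B2m in both genotypes and H2-K1 in KO, and the class II points lie between -0.80 and -0.36, all open.

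The class II genes were next. In WT mice all 4 had lower fitted levels on MR, with a median log2 fold change of -0.75, and none of the 4 passed the test. In KO mice all 4 were again lower in the fit, with a median of -0.41, and none passed. All 4 stood at an unadjusted p under 0.05 in WT and none in KO, where 14.7% and 13.9% of all genes were lower at that level. In bulk tissue, fewer cells of a type and less RNA per cell cannot be told apart.

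H2-Aa was 61.7, 136, 136, 75.35 and 77.9 CPM in WT Con mice and 57.1, 64.8, 67.7, 56.7 and 58.8 CPM in WT MR mice. In 4 of 5 WT Con mice it was above every WT MR mouse, and WT_CON_7602 alone reached into the MR range. Its log2 fold change was -0.67 ± 0.24 (SE, edgeR adjusted p = 0.065). H2-Ab1, the partner chain of H2-Aa, was 38.2, 79.4, 101, 44.8 and 50.7 CPM on Con and 34.0, 38.0, 39.9, 36.0 and 33.2 CPM on MR in WT mice. The same mouse, WT_CON_7602, was the one that overlapped. Its log2 fold change was -0.79 ± 0.28 (edgeR adjusted p = 0.064).

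H2-Eb1, the beta chain of I-E, was 28.2, 72.8, 76.5, 35.8 and 43.7 CPM in WT Con and 27.9, 31.8, 28.8, 31.0 and 28.4 CPM in WT MR. Its log2 fold change was -0.80 ± 0.27 (SE, edgeR adjusted p = 0.053). Cd74 was 36.1, 69.8, 80.8, 45.3 and 49.6 CPM in WT Con and 34.1, 39.7, 36.2, 33.45 and 29.4 CPM in WT MR. Its log2 fold change was -0.70 ± 0.28 (edgeR adjusted p = 0.11). For both genes 4 of 5 Con mice were above every MR mouse, and the exception was again WT_CON_7602. Among the 5 kept WT Con mice, WT_CON_7603 and WT_CON_7605 were the highest for every class II member.

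How the 4 genes fared against the threshold depended on the fit. DESeq2 on the same counts called all 4 lower in WT (adjusted p = 0.026 for H2-Aa, 0.020 for H2-Ab1, 0.015 for H2-Eb1 and 0.049 for Cd74). With all 24 mice edgeR called 3, and across the 22 fits that left out 1 mouse it called 0 to 3. The highest count, 3, came without KO_CON_7618 or without WT_CON_7602. It called 2 without KO_CON_7622, and 1 without KO_CON_7620, KO_CON_7623 or the library labelled WT_CON_7607, for which the gene was H2-Eb1 (-0.90, edgeR adjusted p = 0.043). The median of the 4 log2 fold changes in WT ran from -0.88 without WT_CON_7602 to -0.55 without WT_CON_7605, and was -0.83 without the library labelled WT_CON_7607. The mice left out, WT_CON_7604 and WT_MR_7612, had 204 and 96.8 CPM of H2-Aa, scaled over all 24 mice, each above every kept mouse of its group.

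In NRF2 KO mice the spread on Con was again wide. H2-Aa ran from 56.6 to 139 CPM on Con (median 77.3) and from 55.8 to 87.4 CPM on MR (median 70.6). H2-Ab1 ran from 31.1 to 89.2 CPM on Con (median 48.6) and from 32.7 to 49.4 CPM on MR (median 41.6). H2-Eb1 ran from 28.7 to 69.3 CPM on Con (median 39.0) and from 27.6 to 40.4 CPM on MR (median 31.8). The diet groups overlapped for these and for Cd74, and KO_CON_7618 and KO_CON_7620 held the highest values of all 4 genes. Cd74 ran from 32.0 to 89.4 CPM on Con (median 43.2) and from 28.5 to 49.1 CPM on MR (median 34.5). The log2 fold changes were -0.36 ± 0.22, -0.38 ± 0.25, -0.44 ± 0.24 and -0.51 ± 0.26 for H2-Aa, H2-Ab1, H2-Eb1 and Cd74, with edgeR adjusted p of 0.31, 0.35, 0.26 and 0.21. Without KO_CON_7618 their median moved from -0.41 to -0.23.

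The class II genes moved together within groups. After each group mean was removed, Pearson's r between pairs of class II members over the 22 mice was 0.93 to 0.97 (6 pairs, median 0.96). Among the class I members it was -0.05 to 0.82 (15 pairs, median 0.43), and between the classes 0.06 to 0.68 (24 pairs, median 0.49). The pairs share libraries, so these are descriptions. The within-group SD of log2 CPM was 0.38 to 0.45 for the class II members and 0.14 to 0.40 for the class I members, smallest for H2-D1 and Tapbp and largest for Tap2. Among all genes tested, 77.3% to 83.9% had a smaller within-group SD than a class II member. The ratio of H2-Aa to H2-Ab1 within a mouse differed between diets by 0.10 in WT and -0.02 in KO on the log2 scale (two-sided exact permutation p = 0.18 and 0.84), and that of Cd74 to H2-Ab1 by 0.05 and -0.12 (two-sided exact permutation p = 0.52 and 0.17). None was under 0.27 after adjustment over the 12 ratio tests.

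**Figure D3:**
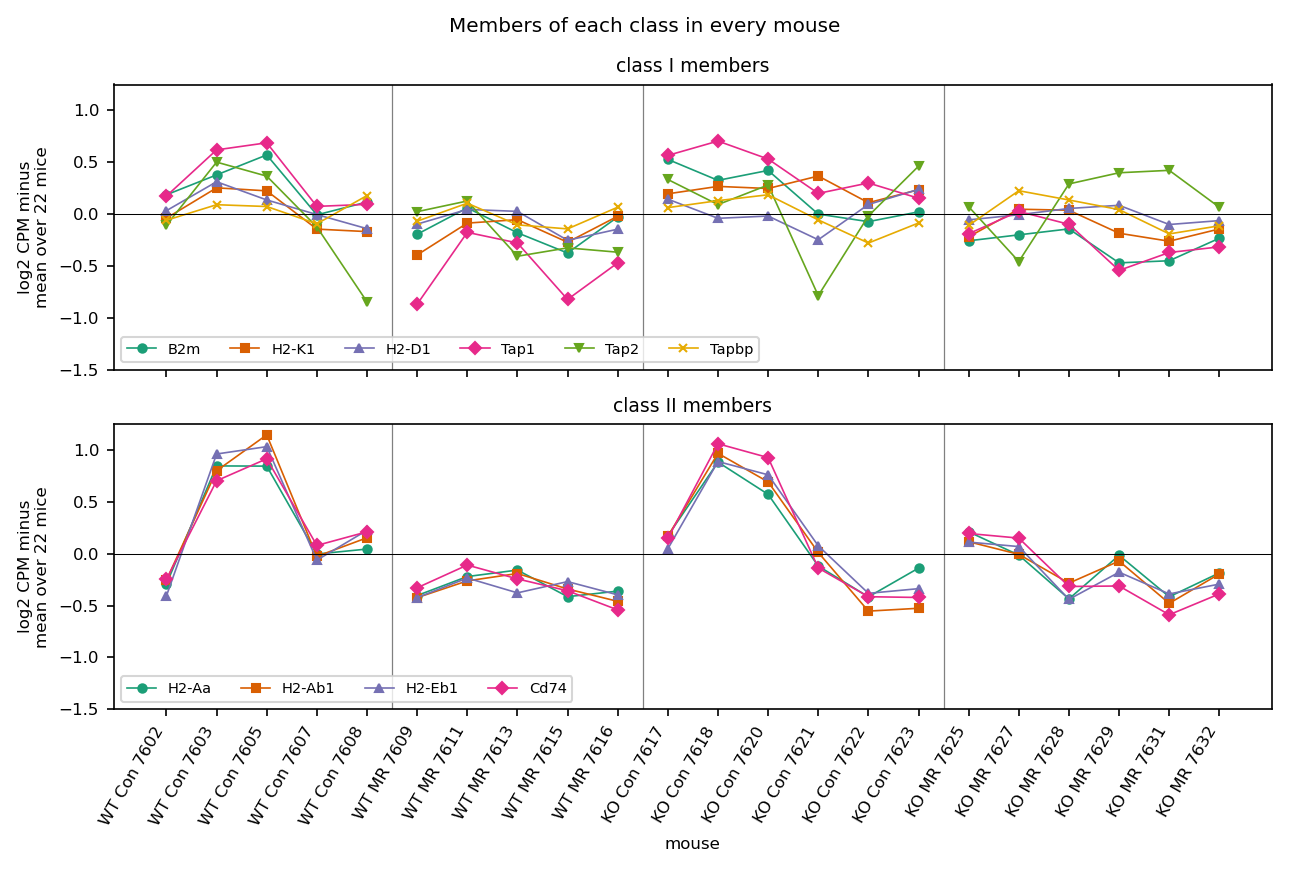
For each of the 22 mice (x axis, by group), the log2 CPM of each member minus its mean over mice is drawn, class I above and class II below. The 4 class II lines run nearly on top of each other and peak in WT_CON_7603 and WT_CON_7605 and KO_CON_7618 and KO_CON_7620, whereas the 6 class I lines diverge, Tap2 most.

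The genes whose within-group pattern was most like each class were found among 8768 genes with a mean of at least 5 CPM. For the mean of the class II members they were Rassf4 (r = 0.83), H2-DMa (r = 0.81), Camta2 (r = 0.81), Cdk5 (r = 0.81) and Limd2 (r = 0.79), each over 22 mice. For the mean of the class I members they were Sqor (r = 0.86), Prg4 (r = 0.85), AW112010 (r = 0.84), Acy1 (r = 0.83) and Kmo (r = 0.82). H2-DMa encodes a chain of the chaperone that loads class II molecules.

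Genotype was compared next. No member passed the test between NRF2 KO and WT on Con, where 2.07% of all genes passed, or on MR, where 1.93% passed. H2-K1 had the lowest adjusted p of the 10 on Con, with a mean of 1339 ± 78.8 CPM in KO (SD, n = 6) and 1163 ± 164 CPM in WT (SD, n = 5), a log2 difference of 0.20 ± 0.09 (edgeR adjusted p = 0.32). The diet effect was compared between genotypes by an interaction term, which 0.0450% of genes passed (6 of 13336) and no member did. The interaction was largest for H2-Ab1 at 0.41 ± 0.37 (log2, edgeR adjusted p = 0.85), and for Tap1 it was 0.17 ± 0.20 (edgeR adjusted p = 0.89). At an unadjusted p under 0.05 there was 1 member on Con (H2-K1), none on MR and none in the interaction, against 14.4%, 13.9% and 7.56% of all genes. DESeq2 called none of the 10 in these 3 comparisons. None was called in any of the 22 fits that left out 1 mouse, including the one without the library labelled WT_CON_7607. The different counts of members called in WT and KO are thus not shown to differ.

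The other class I genes, non-classical chains and class I-like molecules, were described as a list of 18 symbols, of which 13 were tested. On MR 4 of 13 were lower in WT and 2 of 13 in KO, and none was higher, against 6.91% and 6.34% of all genes called lower on MR and 6.91% and 6.23% called higher. Scaled by library size alone, 4 were lower and 1 higher in WT and 1 lower and 1 higher in KO, and with only the groups compared 2 were lower in WT and 3 in KO. With 1 mouse left out, 3 to 5 were lower in WT and 1 to 3 in KO, where the number was 1 without KO_CON_7618, KO_CON_7621, KO_MR_7629, KO_MR_7631 or KO_MR_7632. H2-Q10, a secreted class I molecule made by the liver, went from 1813 to 1199 mean CPM in WT (log2 fold change -0.60 ± 0.09, edgeR adjusted p = 1.4e-04) and from 2017 to 1492 mean CPM in KO (-0.44 ± 0.08, edgeR adjusted p = 0.0014). It kept both calls in all 22 fits that left out 1 mouse. H2-Q7 had log2 fold changes of -0.49 ± 0.14 in WT (edgeR adjusted p = 0.024) and -0.43 ± 0.13 in KO (edgeR adjusted p = 0.032). Its WT call was lost without WT_MR_7609 or WT_MR_7615, and its KO call without any of KO_CON_7618, KO_CON_7621 and KO_CON_7622 and KO_MR_7629, KO_MR_7631 and KO_MR_7632. Mr1, which presents vitamin B metabolites to MAIT cells, had a log2 fold change of -1.13 ± 0.22 in WT (edgeR adjusted p = 0.0013) and -0.52 ± 0.19 in KO (edgeR adjusted p = 0.072). H2-Q1 had -2.01 ± 0.52 in WT (edgeR adjusted p = 0.015) and -0.10 ± 0.43 in KO (edgeR adjusted p = 0.92). Its counts were low and uneven, 1 to 587 a kept library, with 14.2 ± 8.61 CPM in WT Con and 3.32 ± 1.98 CPM in WT MR (SD). Its WT call held in all 22 fits that left out 1 mouse and was lost with only the groups compared. The interaction for H2-Q1 was 1.92 ± 0.67 and did not pass (edgeR adjusted p = 0.48).

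Of the 12 genes of class I peptide supply and loading, 1 was lower in WT, and 2 were lower and 1 higher in KO. The count in WT is near the 6.91% of all genes called lower, those in KO stand beside 6.34% lower and 6.23% higher, and the median in WT was -0.06. Without the library labelled WT_CON_7607, 2 were lower in WT, and scaled by library size alone, 4 were higher in KO. With 1 mouse left out, 0 to 3 were lower in WT, and 2 to 3 lower and 0 to 3 higher in KO. Psmb8, a catalytic subunit of the immunoproteasome, went from 35.4 to 22.1 mean CPM in WT (-0.67 ± 0.20 log2, edgeR adjusted p = 0.028), a call lost without WT_CON_7603, WT_CON_7605, WT_MR_7609, WT_MR_7615 or WT_MR_7616, and had -0.36 ± 0.18 in KO (edgeR adjusted p = 0.20). Psmb10, another such subunit, had 0.21 ± 0.11 in WT (edgeR adjusted p = 0.23) and 0.32 ± 0.10 in KO (edgeR adjusted p = 0.042, lost without any of 9 of the KO mice). Calr and Pdia3, the calreticulin and disulfide isomerase of the loading complex, fell in KO, with log2 fold changes of -0.52 ± 0.13 (edgeR adjusted p = 0.013) and -0.58 ± 0.14 (edgeR adjusted p = 0.0083), and had -0.36 ± 0.15 each in WT (edgeR adjusted p = 0.10 and 0.12). With all 24 mice the KO call of Calr was lost, and 1 gene of the list was lower in KO. Psmb9 is named because it overlaps Tap1 on the other strand, and the sources do not state whether counting used strand. It had -0.69 ± 0.24 in WT (edgeR adjusted p = 0.062) and -0.12 ± 0.22 in KO (edgeR adjusted p = 0.77).

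Of 12 class II accessory genes tested, 2 were lower in WT and none passed in KO, with medians of -0.43 and -0.18, beside 6.91% and 6.34% of all genes called lower. In WT 1 was lower without the library labelled WT_CON_7607, and over all fits with 1 mouse left out the numbers were 1 to 3 in WT and 0 to 2 in KO. Ctss, the cathepsin that trims the invariant chain, had -0.53 ± 0.12 in WT (edgeR adjusted p = 0.0066), kept in all 22 fits that left out 1 mouse, and -0.32 ± 0.11 in KO (edgeR adjusted p = 0.066). H2-DMa had -0.75 ± 0.23 in WT (edgeR adjusted p = 0.029), lost without WT_CON_7605, WT_MR_7609, WT_MR_7613, WT_MR_7615 or the library labelled WT_CON_7607, and -0.51 ± 0.20 in KO (edgeR adjusted p = 0.097). Ctsl, the most abundant of the list, had 0.23 ± 0.14 in WT and 0.19 ± 0.13 in KO and did not pass. Among regulators of both classes, the kinase Jak1, the most abundant, had log2 fold changes of 0.01 ± 0.07 in WT and 0.13 ± 0.07 in KO. Nlrc5, named for its known role, had 0.06 ± 0.19 in WT and 0.18 ± 0.17 in KO, and Ciita, with 0 to 23 counts a library, did not pass the filter on low counts.

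**Figure D4:**
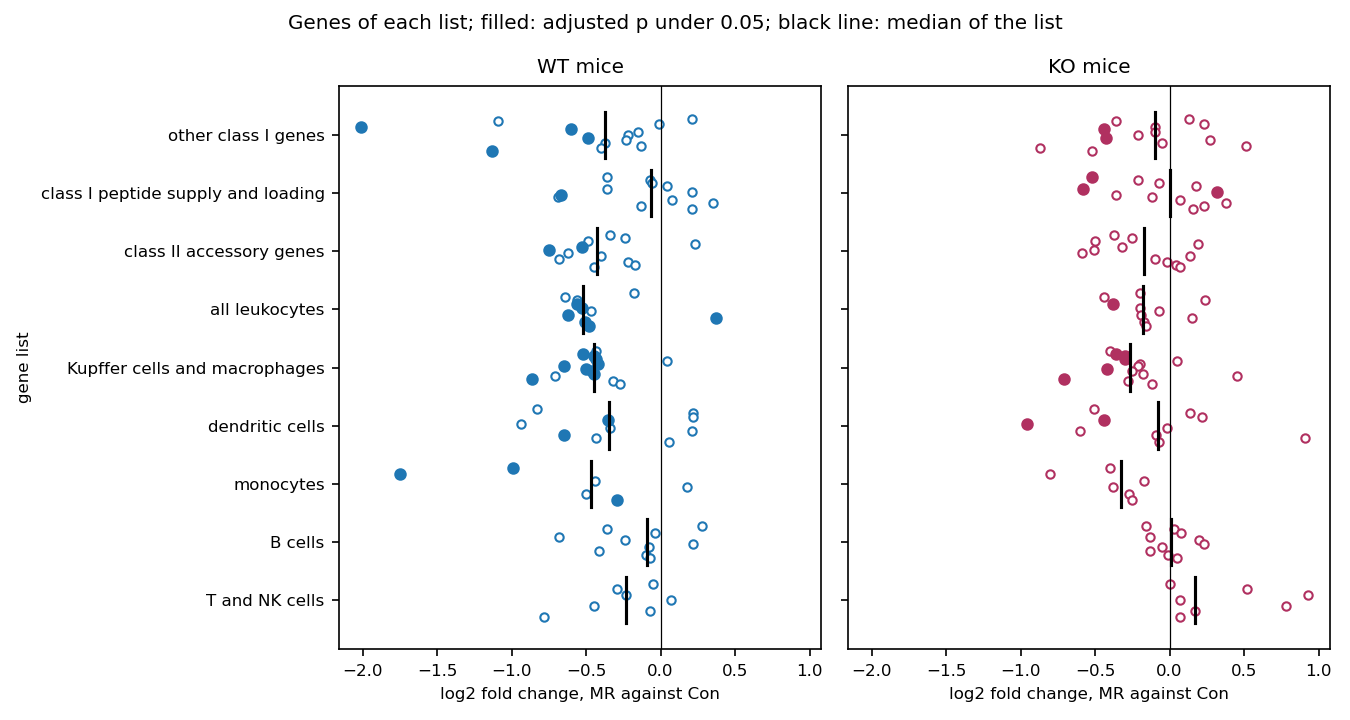
Each point is a tested gene, placed by its log2 fold change of MR against Con (x axis) in its list (y axis), in WT (left) and KO mice (right), filled where the edgeR adjusted p was under 0.05, with the list median in black. Medians of the Kupffer cell list are -0.45 and -0.26, and no point of the B cell or the T and NK cell list is filled.

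Markers of the cells that carry class II are set here beside the 6.91% (WT) and 6.34% (KO) of all genes called lower on MR. Their part in the class II values was not tested. Of 14 markers of Kupffer cells and macrophages 9 were lower on MR in WT and 5 in KO, with medians of -0.45 and -0.26. Their summed level in the kept mice was 625.3 to 839 CPM in WT Con and 487 to 554 CPM in WT MR, without overlap, and 540 to 796 CPM in KO Con and 464 to 622 CPM in KO MR. Cd5l, their most abundant gene, had -0.42 ± 0.13 in WT (edgeR adjusted p = 0.031, lost without any of 6 of the WT mice, the library labelled WT_CON_7607 among them) and -0.20 ± 0.12 in KO (edgeR adjusted p = 0.27). Clec4f, a lectin particular to Kupffer cells, had -0.50 ± 0.12 in WT (edgeR adjusted p = 0.0085) and -0.42 ± 0.11 in KO (edgeR adjusted p = 0.015), and C1qa, a complement component, -0.52 ± 0.10 (edgeR adjusted p = 0.0017) and -0.36 ± 0.09 (edgeR adjusted p = 0.014). Without the library labelled WT_CON_7607, 7 of 14 were lower in WT. With all 24 mice 5 were lower in WT and 3 in KO, with WT_MR_7612, left out of the fits, at a sum of 849 CPM. Scaled by library size alone, 4 were lower in WT and 1 in KO. With 1 mouse left out, 7 to 9 were lower in WT and 3 to 6 in KO, 3 without KO_CON_7618, KO_CON_7620, KO_MR_7629 or KO_MR_7631.

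Of 10 dendritic cell markers tested 2 were lower in each genotype, Cst3 and Wdfy4 in WT and Cst3 and Itgax in KO. Their sum was 226 to 279 CPM in WT Con, 174 to 214 in WT MR, 175 to 259 in KO Con and 157 to 186 in KO MR, most of it from Cst3, a protease inhibitor that other cells make too. Of the 12 dendritic cell symbols listed, Flt3 and Cd209a had at most 13 counts a library and were not tested. Zbtb46, Xcr1, Clec9a and Batf3 were tested and did not pass in either genotype. Of 10 B cell markers none passed in either genotype. Their sum was 12.7 to 17.7 CPM in WT Con, 10.3 to 15.7 in WT MR, 9.06 to 17.1 in KO Con and 9.43 to 15.4 in KO MR, with Ighm the most abundant. Of 7 T and NK cell markers none passed, Il2rb was the most abundant at under 2 CPM in each group mean, and Cd3e, Cd3g, Cd4 and Cd8a had too few counts to test. Among 6 monocyte markers 3 were lower in WT and none in KO. Among 10 genes of all leukocytes 5 were lower and 1 higher (Lcp1) in WT, and 1 was lower in KO (Cd52). Without the library labelled WT_CON_7607, 1 dendritic cell marker (Cst3), 2 monocyte markers and 4 leukocyte genes were lower in WT. Scaled by library size alone the numbers were 0, 2 and 2. With 1 mouse left out they were 1 to 4, 2 to 4 and 3 to 6 in WT, and 1 to 2, 0 to 2 and 0 to 1 in KO.

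Among the 5 kept WT Con mice, those with the highest class II sums were not those with the highest macrophage sums. WT_CON_7603 and WT_CON_7605 summed to 362 and 398 CPM for the 4 class II members and 625.3 and 712 CPM for the macrophage markers. The library labelled WT_CON_7607, with its Nfe2l2 level in the KO Con range, and WT_CON_7608 summed to 203 and 224 CPM for class II. They summed to 839 and 791 CPM for the macrophage markers. Without the library labelled WT_CON_7607, WT_CON_7608 had the highest macrophage sum of the kept WT Con mice and WT_CON_7605 the next. WT_CON_7604, left out of the fits, was the highest WT Con mouse in both, at 544 and 920 CPM. In KO Con, KO_CON_7618 was the highest in both, at 389 and 796 CPM. Within groups, the class II mean had r = 0.22 with the mean of the macrophage list, 0.04 with dendritic cells, 0.46 with B cells, 0.62 with T and NK cells and 0.39 with all leukocytes (22 mice, sharing libraries). Single macrophage markers differed widely from their list mean. Csf1r, a receptor for macrophage growth factors, had r = 0.70 with the class II mean, Mpeg1 0.59 and Adgre1 0.48, whereas Marco had -0.59, Lyz2 -0.31 and Cd68 -0.28. These 6 were chosen after their values were seen. The class I mean had r = 0.84 with the peptide supply and loading list, 0.69 with the other class I genes and 0.00 with the macrophage list. Over all cell marker lists it ran from -0.43 (sinusoidal endothelial cells) to 0.44 (T and NK cells), with 0.38 for hepatocytes. With group means not removed, it was 0.45 for the macrophage list and 0.59 for hepatocytes.

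**Figure D5:**
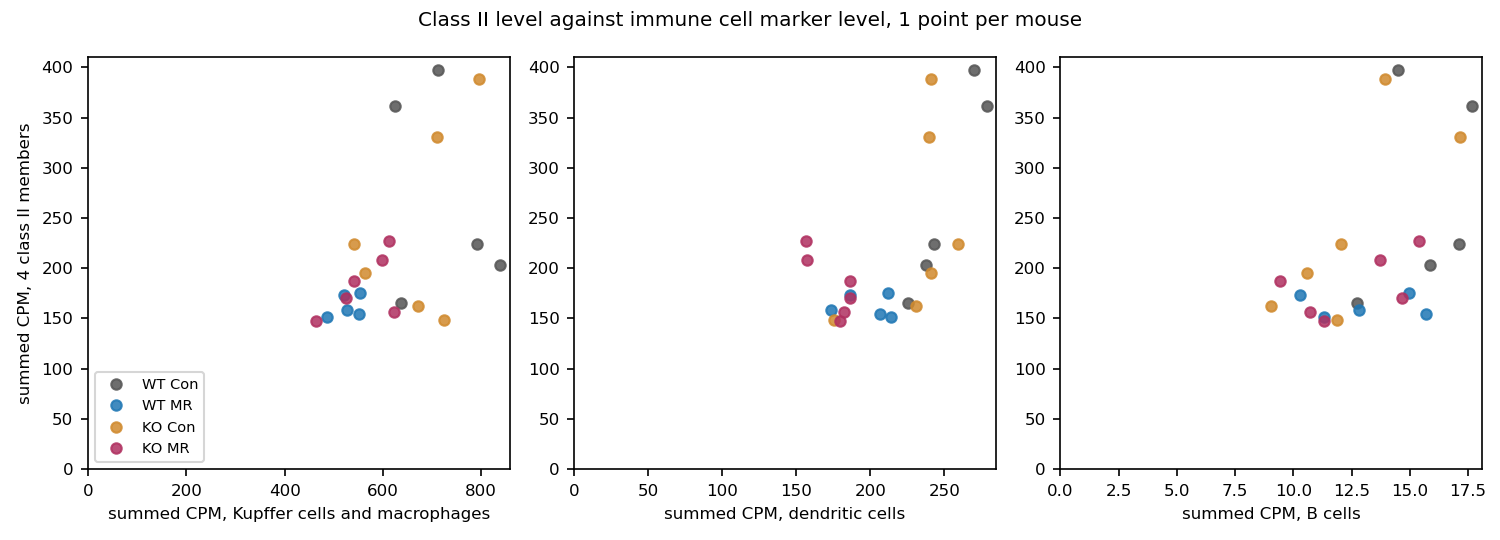
The summed CPM of the 4 class II members (y axis) is drawn against the summed CPM of the markers of Kupffer cells and macrophages, dendritic cells and B cells (x axes, linear from 0), 1 point a mouse, coloured by group. Among the 22 kept mice, the 4 with the highest class II sums (331 to 398 CPM) are all Con mice and span 625.3 to 796 CPM on the macrophage axis.

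Markers of other cell types of the liver are set beside the 6.91% (WT) and 6.34% (KO) of all genes called lower on MR and the 6.91% and 6.23% called higher. Of 10 hepatocyte genes 1 was lower in WT (Apoa1) and 2 in KO (Apoa1 and Serpina1c), and Alb, the most abundant with a mean of 71950 CPM in WT Con, had -0.30 ± 0.11 in WT (edgeR adjusted p = 0.059). Stellate cell markers were lower in 5 of 9 in WT and 3 of 9 in KO, bile duct markers in 4 of 5 and 1 of 5, and neutrophil markers in 1 of 3 and 0 of 3. Without the library labelled WT_CON_7607, 3 stellate and 0 neutrophil markers were lower in WT. Stellate markers lower in WT also numbered 3 with all 24 mice or with only the groups compared, and scaled by library size alone they numbered 1 in each genotype. With 1 mouse left out they numbered 2 to 7 in WT, 2 without WT_CON_7608 or WT_MR_7613, and neutrophil markers 0 to 2. Bile duct markers lower in WT numbered 2 without WT_CON_7608, which cost the calls of Krt7 and Epcam, and 2 under the stricter filter of at least 10 counts in every mouse. Hepatocyte genes lower in KO numbered 0 without KO_CON_7618 and at most 3, and in WT 3 without WT_CON_7608. Of 10 sinusoidal endothelial markers 1 was higher in WT (Bmp2) and 2 in KO (Bmp2 and Kdr), where 5 were when scaled by library size alone. What part these shifts had in the class I values was not tested.

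In the genome (GRCm38), 8 of the 10 members lie on chromosome 17 between 33915899 and 35267499, the mouse major histocompatibility complex, B2m lies on chromosome 2 and Cd74 on chromosome 18. Annotated genes overlap B2m (Patl2), Tap2 (Gm20496 and Gm15821), H2-Eb1 (Gm20513) and Tapbp (Gm19412) on the other strand, and Tapbp (Zbtb22) and Cd74 (Mir5107) on the same strand. The forward (FWD) version of the pipeline was used, but whether its counting used strand is not stated in the sources used here, so values of such pairs are uncertain. H2-K1, H2-D1, H2-Aa and H2-Ab1 overlap no other annotated gene.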

How the data were processed

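Total liver RNA was made into 3′ libraries with the Lexogen QuantSeq kit by the authors. The deposited table of raw read counts per gene came from the forward (FWD) Lexogen QuantSeq pipeline run on Bluebee, and a second deposited table holds those counts divided by size factors, a normalized signal. The processing notes name GRCm38, R 3.4.3 and DESeq2 1.18.1. The aligner, the annotation and whether counting used strand were not given in the sources used here.

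Counts were fitted with the edgeR 4.0.16 quasi-likelihood test (R 4.3.3, TMM scaling, filterByExpr, 4 group means, 22 mice), with Benjamini-Hochberg adjustment over 13336 genes and a threshold of 0.05. CPM are TMM-scaled. SE are of the fitted log2 fold change. Of 15160 genes, 13016 had a deposited symbol and 2103 were named from GENCODE M21. Alternatives used DESeq2 1.42.0, limma 3.58.1 on log2 (normalized value + 1), other scalings and filters, the groups compared alone, all 24 mice and each mouse left out. The test was run on simulated data first. Log2 CPM for correlations used a prior count of 2. All 10 members, Nfe2l2, up to 6 called genes and the most abundant gene of each of 17 lists, and the 5 genes most like each class were named, and any other gene was chosen after its values were seen. Members and lists were chosen with earlier results of these data known. The counts of calls for the list of regulators are not reported here. Each library is 1 mouse.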

Additional observations from a re-analysis of the deposited data

Results flagged for a closer look

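Mouse WT_CON_7604, left out of the fits, had more class II RNA than any of the 22 kept mice. It stood at 204.2 CPM for H2-Aa, 121.6 CPM for H2-Ab1, 105.9 CPM for H2-Eb1 and 112.1 CPM for Cd74, values scaled over all 24 mice. Its macrophage markers summed to 920 CPM, its monocyte markers to 92.5 CPM and its B cell markers to 28.7 CPM, each also above the 22 kept mice, and their part in its class II values was not tested. The other mouse left out, WT_MR_7612, had 96.8 CPM of H2-Aa.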

How the results depend on the processing

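No paired analysis was possible because each mouse number belongs to 1 group. Library size alone moved the median of all genes by 0.09 on MR in WT and 0.16 in KO (log2). Under it 2785 genes were called on MR in KO, the class I median there was -0.05, H2-K1 in KO was at -0.20 (edgeR adjusted p = 0.056), and Tapbp in WT (0.02) and H2-D1 in KO (0.11) changed sign; relative to the shifted median they were at -0.06 and -0.04. The class II members called on MR in WT numbered 4 by DESeq2, 3 with all 24 mice, 1 under the stricter filter (10 counts or more in each mouse) and 1 with only the groups compared, under which 1 class I member was called. Genes called between genotypes on Con numbered 449 by DESeq2 and 99 with only the groups compared, on MR 484 and 600, and in the interaction 33 by DESeq2. With all 24 mice, B2m between genotypes on Con (0.005) and Cd74 on MR (-0.04) changed sign, as did Tapbp on MR in KO under that filter (-0.002). The cause was not tested.

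Leaving out 1 mouse gave 181 (without WT_CON_7603) to 314 genes called between genotypes on Con, 3 to 12 in the interaction, 1 to 2 class I members called in WT and 0 to 3 class II members. Signs changed, with no call, for MR in KO in Tap2 (-0.08 to 0.15) and Tapbp (-0.05 to 0.04). They changed for KO against WT on Con in H2-D1 (-0.09 to 0.02), B2m (-0.12 to 0.04), Tap2 (-0.07 to 0.22), Tapbp (-0.08 to 0.01), H2-Aa (-0.31 to 0.01), H2-Ab1 (-0.42 to 0.01) and Cd74 (-0.27 to 0.09), and on MR in H2-K1 (-0.01 to 0.08) and Tapbp (-0.02 to 0.07). The log2 ratio of H2-K1 to H2-D1 in WT ran from -0.09 to 0.02 and that of H2-Aa to H2-Ab1 in KO from -0.05 to 0.05. Of the list genes called apart from the members, 21 of 40 in WT and 13 of 21 in KO were called in all 22 such fits. Genes with few counts, such as Ciita, could not be tested at this depth.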
